A study of Homo sapiens with 6 samples.

Results

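ISG15 is a small protein, built from a pair of ubiquitin-like domains, that cells attach to other proteins in the way ubiquitin is attached. The members described here are the modifier ISG15, its activating enzyme UBA7 (E1), its conjugating enzyme UBE2L6 (E2), the ligases of the HERC family HERC5 and HERC6, and USP18, the protease that takes ISG15 off its targets. They were chosen by symbol, as the modifier and the enzymes that attach and remove it, and all 6 were listed in the deposited files, among 17356 lines per library. RNA-seq had been made from C4-2B-ENZR cells, a human prostate cancer line resistant to the androgen receptor inhibitor enzalutamide. Of the 6 libraries, 3 are of cells given a control siRNA (NC) and 3 are labelled as given an siRNA to KIF15, a mitotic kinesin (siKIF15). Both groups share the line, its resistance and the transfection, and they differ by label only in the siRNA. Whether they derive from separate cultures is not labelled, so each p-value below reflects library-to-library spread that may be technical.

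ISGylation, the attachment of ISG15, runs through a cascade: UBA7 activates ISG15, UBE2L6 receives it, and a ligase passes it to a lysine of the target. HERC5 is the main ligase of human cells, whereas HERC6 fills that place in the mouse. USP18 reverses the reaction and, apart from its protease activity, binds the interferon receptor chain IFNAR2 and damps its signal. Genes of the system are known as targets of interferon, which acts through the transcription factor complex ISGF3, with STAT2 and IRF9 among its parts, at a DNA element called the ISRE. Free ISG15 is also secreted and can bind the integrin LFA-1.

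The 250 bases before the RefSeq start sites of ISG15, HERC5 and HERC6 (build GRCh38.p14) are printed here because the first and the second of these genes showed the largest rises of the system and carry the ISRE letters, while the window of HERC6, a close relative and neighbour of HERC5, does not. They are given on the plus strand, which is the coding strand of all of them, and the capitals mark matches to the ISRE core GAAANNGAAA on either strand, where N is any base. The ISG15 window is chr1:1013247-1013496, that of HERC5 is chr4:88456869-88457118 and that of HERC6 is chr4:88378602-88378851.
ISG15: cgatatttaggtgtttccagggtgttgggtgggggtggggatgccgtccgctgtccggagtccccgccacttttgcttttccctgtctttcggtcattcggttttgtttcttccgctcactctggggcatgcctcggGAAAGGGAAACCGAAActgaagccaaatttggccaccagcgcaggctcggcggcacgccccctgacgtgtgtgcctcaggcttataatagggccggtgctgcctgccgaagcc
HERC5: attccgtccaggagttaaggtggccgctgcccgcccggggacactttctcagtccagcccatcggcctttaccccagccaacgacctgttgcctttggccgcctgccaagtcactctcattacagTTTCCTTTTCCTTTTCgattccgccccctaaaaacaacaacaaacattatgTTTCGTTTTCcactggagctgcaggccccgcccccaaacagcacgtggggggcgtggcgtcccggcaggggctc
HERC6: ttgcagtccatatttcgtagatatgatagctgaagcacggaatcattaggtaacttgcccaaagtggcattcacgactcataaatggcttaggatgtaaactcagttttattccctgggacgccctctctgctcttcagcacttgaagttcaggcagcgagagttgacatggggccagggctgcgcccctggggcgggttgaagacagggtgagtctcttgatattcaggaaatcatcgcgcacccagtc

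ISG15 held 2 overlapping matches, GAAAGGGAAA from 113 to 104 bases before the start and GAAACCGAAA from 107 to 98. HERC5 held 3 matches on the opposite strand, read on the plus strand as TTTCCTTTTC from 125 to 116 bases and again, overlapping, from 119 to 110, and as TTTCGTTTTC from 74 to 65. A longer form, GAAANNGAAACT, which contains the core, was matched in both genes, as GAAACCGAAACT in ISG15 and as AGTTTCCTTTTC on the opposite strand in HERC5. The promoter table also has UBE2L6, with 2 start sites, and neither of its windows nor that of HERC6 held a core match. Over all 35116 promoter windows of the same length, 3.02% held the core and 0.225% the longer form. The GAS core TTCNNNGAA, another interferon-response motif, was in 6.57% of all windows and in 0 of the 4 members with an entry. UBA7 and USP18 were not analysed here for promoter letters. These matches describe letters in a window, and no binding was measured.

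The deposited values are 1 signal per gene and library, whose unit is not stated and whose depth is unknown. Summed over genes they came to between 49461000 and 53157000 per library. The NC libraries listed KIF15 itself at 366.4, 403.6 and 319, those labelled siKIF15 at 294.8, 333.1 and 363. These ranges overlapped, and the difference of -0.13 ± 0.14 (SE) on the log2 scale did not pass the test (adjusted p = 0.57, limma). The values therefore do not show the knockdown that the label names, and all directions given here compare the labels, not measured KIF15 levels. The sum of 10 luminal prostate markers was 331758.9 to 341901.8 in NC and 354225.2 to 365667 in siKIF15, with KLK3 (prostate-specific antigen) at means of 64846 and 68868.6. Of 13 leukocyte markers 8 were listed, summing to 1707.8 to 1940.8 in NC and to 2943.5 to 3621.1 in siKIF15. Nearly all of that sum was CD68, a lysosomal protein that rose from a mean of 1783.3 to 3264.4, while the pan-leukocyte gene PTPRC was at 0.8, 0.1 and 3.8 in NC and at 0 in each siKIF15 library. The part of these marker values in the changes below was not tested. The sum of 10 fibroblast markers was 679.1 to 683.2 in NC and 671 to 713.1 in siKIF15. Of these FAP and PDGFRA, near the floor, went from means of 0.8 each to 6.6 and 5.9. Both reached the minimum mean of 1 for testing only through the siKIF15 group. Their calls as higher (adjusted p = 0.03 and 0.042, limma) therefore carry little weight, and held in 10 and 8 of 15 alternatives. In such bulk libraries, fewer cells of a kind and less RNA per cell cannot be told apart.

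All 6 members rose in the libraries labelled siKIF15, and in each of them every siKIF15 library lay above every NC library. Each change is a difference of mean log2(value + 1), siKIF15 less NC, and a gene is called when its limma p, adjusted by the Benjamini-Hochberg method over 16548 tested genes, is under 0.05. For comparison, 9.66% of all tested genes were called higher and 8.33% lower, and 18.3% had every siKIF15 library above every NC library. The split of 1599 genes higher and 1379 lower became 1204 and 1753 when each library was scaled to the same total, and the members remained higher on that scale. The median change of the members was 2.47, against 0 for all tested genes, whose middle part ran from -0.22 to 0.21 (quartiles). The order of the changes, from the largest, was HERC5, ISG15, HERC6, UBE2L6, USP18 and UBA7.

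**Figure D1:**
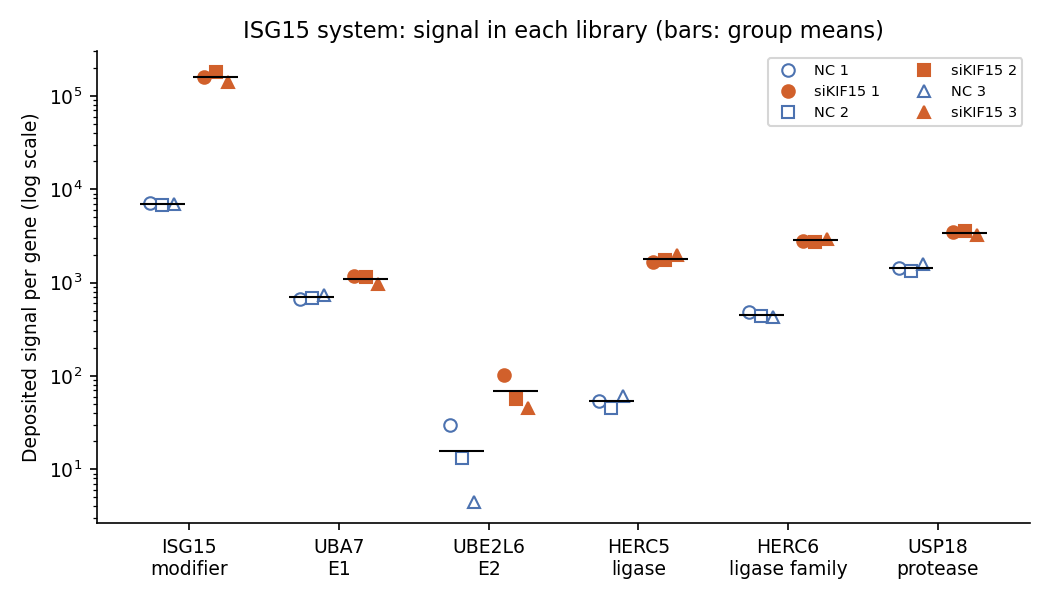
Deposited signal of the 6 genes in each library, on a log scale. Open blue symbols are the NC libraries, filled orange symbols the siKIF15 libraries, and bars the group means. Every siKIF15 value lies above every NC value of the same gene, with the widest gap in HERC5 and the widest spread within a group in UBE2L6.

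ISG15, the modifier, had NC values of 7086.7, 6754.3 and 6882.8, against 159443.6, 179316.2 and 139598.2 in libraries labelled siKIF15. The lowest siKIF15 library thus stood far above the highest NC library, and siKIF15 3 was the lowest and siKIF15 2 the highest of its group. The means were 6907.9 ± 167.6 and 159452.7 ± 19859 (SD, n = 3 each), a 23.1-fold difference, and the log2 change was 4.52 ± 0.08 (SE, 95% interval 4.34 to 4.7, adjusted p = 3.7e-15, limma). By level, ISG15 moved from rank 1570 in NC to rank 17 in siKIF15. It made up 0.0136 to 0.0142% of the summed signal in NC and 0.277 to 0.337% in siKIF15. By size of rise it was in place 63 of the tested genes. The gene lies at chr1:1013497-1014540, and 36 bases of its exons overlap a processed pseudogene on the opposite strand.

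UBA7, the E1 that activates ISG15, had NC values of 665.8, 675.9 and 743, against 1188.8, 1159 and 962.8 in libraries labelled siKIF15. The groups did not overlap, and siKIF15 3 was again the lowest of its group. Its means were 694.9 ± 42 and 1103.5 ± 122.8 (SD, n = 3 each), a 1.59-fold difference, and the log2 change of 0.66 ± 0.11 (SE, 95% interval 0.44 to 0.89, adjusted p = 0.00046) was the smallest of the system. Its gene, at chr3:49805209-49813953, shares 29 exon bases with the microRNA gene MIR5193.

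UBE2L6, the E2, was the least abundant member and the most uneven. It had NC values of 30, 13.2 and 4.5, against 102.3, 56.6 and 45.6 in libraries labelled siKIF15. The groups were separate, but the highest NC library lay nearer to the lowest siKIF15 library than to the lowest of its own group on the log scale. The means were 15.9 ± 13 and 68.2 ± 30.1 (SD, n = 3 each), a 4.28-fold difference, and the log2 change was 2.28 ± 0.51 (SE, 95% interval 1.2 to 3.36, adjusted p = 0.0057). This call did not hold without siKIF15 1 (1.95, adjusted p = 0.11), without NC 2 (2.32, adjusted p = 0.053) or in a fit without a variance trend (adjusted p = 0.13). The gene lies at chr11:57551662-57567935.

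HERC5, the main human ISG15 ligase, had NC values of 53.8, 45.6 and 61.7, against 1659.6, 1759.7 and 1968.3 in libraries labelled siKIF15. It showed the largest change of the system, and here siKIF15 3 was the highest of its group rather than the lowest. The means were 53.7 ± 8 and 1795.8 ± 157.5 (SD, n = 3 each), a 33.4-fold difference, and the log2 change was 5.04 ± 0.15 (SE, 95% interval 4.73 to 5.36, adjusted p = 7.6e-13).

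HERC6, its neighbour on the chromosome, had NC values of 480.4, 434.9 and 428.2, against 2813.5, 2753.8 and 2923.7 in libraries labelled siKIF15. It was the member with the tightest siKIF15 group for its level. The means were 447.9 ± 28.4 and 2830.3 ± 86.2 (SD, n = 3 each), a 6.32-fold difference, and the log2 change was 2.66 ± 0.09 (SE, 95% interval 2.47 to 2.85, adjusted p = 3.9e-12). HERC6 lies at chr4:88378852-88443097 and HERC5 at chr4:88457119-88506163, with 14.0 kb between them. Of the 50-base windows of the HERC6 transcript, 0.8% also occur in another gene's transcript, mainly that of HERC3.

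USP18, the protease that removes ISG15, had NC values of 1449.2, 1334.4 and 1569.3, against 3512.5, 3551.5 and 3246.8 in libraries labelled siKIF15. The groups were well apart. The means were 1451 ± 117.5 and 3436.9 ± 165.8 (SD, n = 3 each), a 2.37-fold difference, and the log2 change was 1.25 ± 0.08 (SE, 95% interval 1.07 to 1.42, adjusted p = 2.7e-08). The USP18 gene lies at chr22:18150170-18177397, and 487 of 2080 windows of 50 bases in its transcript (23.4%) occur in another gene, mostly its near copy USP41. USP41 was listed at 2.8 to 5.7 in NC and 8.3 to 10.8 in siKIF15 (adjusted p = 0.16). How the authors counted reads shared by such copies is not stated, and neither is strand, so the USP18 value and the exon overlaps of ISG15 and UBA7 carry that uncertainty.

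**Figure D2:**
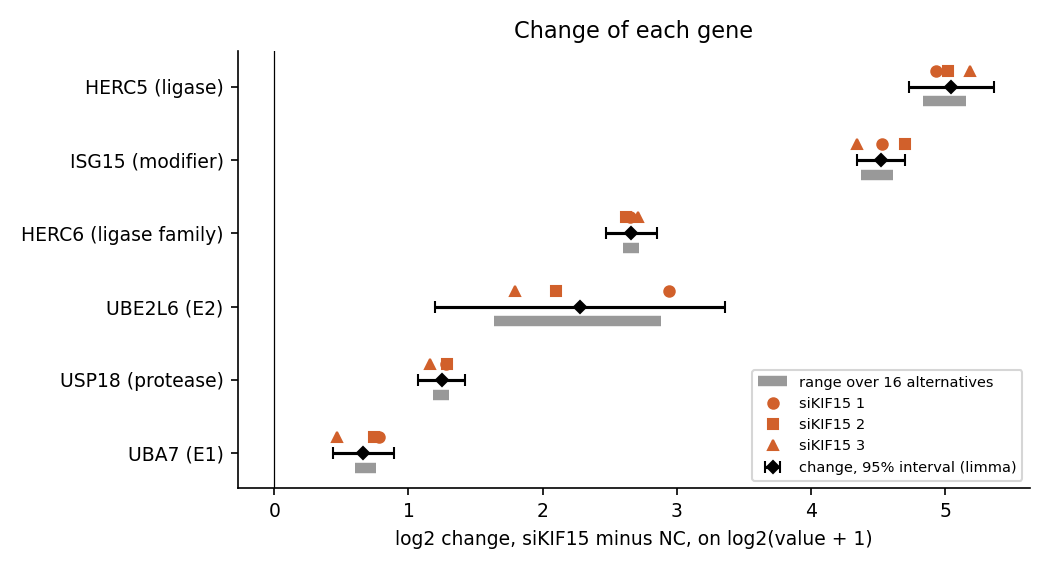
Log2 change of each gene, siKIF15 minus NC. Diamonds with bars are the limma estimates with 95% intervals, orange symbols the single siKIF15 libraries minus the NC mean, and grey bars the range over 16 alternative analyses. Estimates run from 0.66 for UBA7 to 5.04 for HERC5, and no interval or range reaches 0.

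The members changed by unequal amounts, so the ratio of the modifier to most of its enzymes differed between the groups. In NC the signal of ISG15 was 9.26 to 10.6 times that of UBA7, and in siKIF15 it was 134 to 155 times. Against USP18 the ratio went from 4.39 to 5.06 in NC to 43 to 50.5 in siKIF15, and against HERC6 from 14.8 to 16.1 to 47.7 to 65.1. HERC5 was the exception, with an ISG15-to-HERC5 ratio of 112 to 148 in NC and the lower range of 70.9 to 102 in siKIF15. Intervals for differences between members are ordinary t intervals with a variance pooled over the groups, pair by pair, unlike the limma intervals of single genes. The ISG15 change exceeded that of UBA7 by 3.86 (95% interval 3.63 to 4.09) and that of USP18 by 3.28 (3.02 to 3.53). It exceeded that of HERC6 by 1.86 (1.49 to 2.24). It lay 0.52 below that of HERC5, an estimate of -0.52 with an interval of -1.08 to 0.03 that includes 0. After a correction of each library for GC content and transcript length, described below, that estimate was -0.74, and the groups did not overlap. Against UBE2L6 the ISG15 change was larger by 2.24, with a wide interval of 0.07 to 4.41. That ratio was 236 to 1520 in NC and 1560 to 3170 in siKIF15, so the groups were barely separate.

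The enzymes also differed among themselves. HERC5 was at 0.105 to 0.144 of the HERC6 signal in NC and at 0.59 to 0.673 of it in siKIF15, a difference in change of 2.39 (1.97 to 2.8). HERC6 rose more than USP18 by 1.41 (1.1 to 1.72), and UBA7 rose less than USP18, with a difference of -0.58 (-0.78 to -0.39). For UBE2L6, the ratio to HERC6 and the ratio to USP18 overlapped between the groups, with differences of -0.38 (-2.49 to 1.73) and 1.03 (-1.25 to 3.32). In 13 of the 15 pairs the ratio in every library of one group lay beyond that in every library of the other, as in 33% of all pairs of tested genes. Among these 13, the ratio of UBA7 to UBE2L6 was barely separate, at 22.2 to 165 in NC and 11.6 to 21.1 in siKIF15. The 15 pairs share their 6 genes and are not independent. With 3 libraries a side an exact two-sided permutation test has 20 divisions and cannot go below p = 0.1, which these 13 pairs reached (adjusted p = 0.115 over 15 pairs), so no pair could pass a threshold of 0.05.

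**Figure D3:**
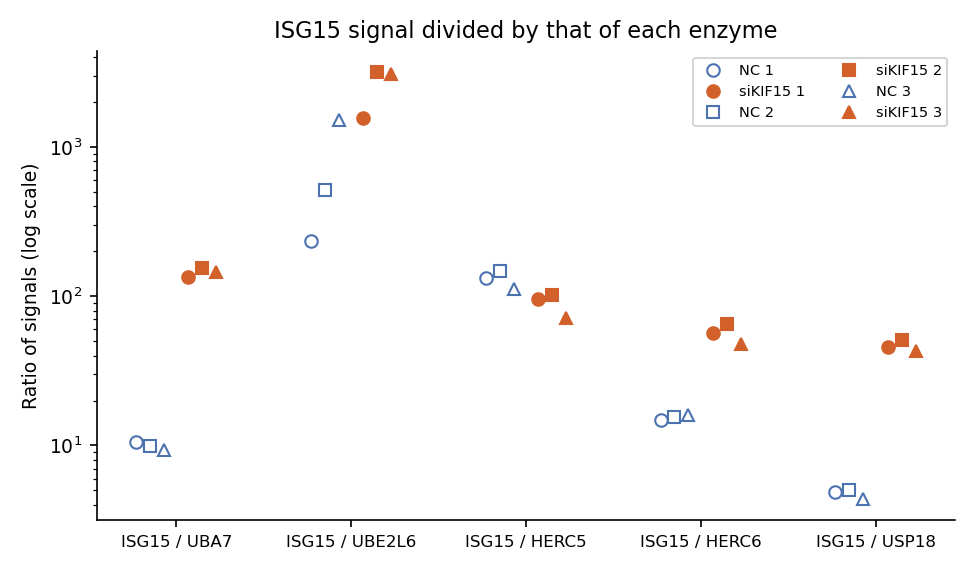
Signal of ISG15 divided by that of each enzyme, per library, on a log scale. Open blue symbols are NC and filled orange symbols siKIF15. The ratio is higher in every siKIF15 library for UBA7, UBE2L6, HERC6 and USP18, and lower for HERC5 (70.9 to 102 against 112 to 148). For UBE2L6 the groups nearly meet, with 236 to 1520 in NC and 1560 to 3170 in siKIF15.

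To compare levels between genes, the signal was divided by the length of the principal transcript in GENCODE, which assumes that the deposited values had not been adjusted for length. In NC the signal per kb was 9720 ± 236 (SD, n = 3) for ISG15, followed by USP18 at 682 ± 55.2, UBA7 at 211 ± 12.7 and HERC6 at 119 ± 7.52. HERC5 and UBE2L6 were lowest in NC, at 15.3 ± 2.29 and 11.7 ± 9.58, and did not differ beyond their spread (13 to 17.6 and 3.34 to 22.2). In siKIF15 the levels per kb were 224000 ± 27900 for ISG15, 1610 ± 77.9 for USP18, 749 ± 22.8 for HERC6 and 511 ± 44.8 for HERC5. UBA7, at 335 ± 37.2, and UBE2L6, at 50.3 ± 22.2, came last, and no neighbours in that order overlapped. UBA7 thus went from the third place to the fifth, passed by both HERC genes, and ISG15 and USP18 kept the first and the second in both groups. The order was the same when lengths were those of all exons of a gene joined.

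The siKIF15 libraries differed from one another along the GC content and the length of the transcripts, and in siKIF15 3 several members lay along the GC pattern. Across 11288 genes averaging 100 or more, GC content and the library's distance from the mean of its group had a rank correlation of 0.55 in siKIF15 1, 0.52 in siKIF15 2 and -0.75 in siKIF15 3, and 0.17, -0.31 and 0.2 in NC 1 to NC 3. With transcript length the correlations were 0.05, -0.63 and 0.52 in siKIF15 1 to siKIF15 3, and -0.23, 0.06 and 0.16 in NC 1 to NC 3. ISG15 has the shortest transcript of the members (0.711 kb), and the shares of GC content and length in its spread were not tested. These are descriptions across genes, which are not independent. In siKIF15 3 the GC-rich ISG15 (64.7% GC) and UBA7 (58.3%) deviated by -0.18 and -0.19 on the log2 scale, and the GC-poor HERC6 (45.5%) and HERC5 (44.1%) by 0.05 and 0.14. In siKIF15 1, UBA7 and HERC5 deviated by 0.11 and -0.11, but ISG15 by only 0.01. Deviations from a shared group mean are not independent between libraries. A loess correction of each library for GC content and length drew the ISG15 changes of the 3 siKIF15 libraries from 4.53, 4.7 and 4.34 to 4.35, 4.37 and 4.39. The corrected changes were 4.37 ± 0.04 for ISG15, 0.61 ± 0.08 for UBA7, 2.18 ± 0.51 for UBE2L6, 5.11 ± 0.13 for HERC5, 2.72 ± 0.07 for HERC6 and 1.2 ± 0.06 for USP18 (SE), and every one remained called. UBE2L6 stayed the most uneven member: its siKIF15 libraries deviated from their mean by 0.66, -0.18 and -0.48 before the correction and by 0.66, -0.29 and -0.37 after it.

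**Figure D4:**
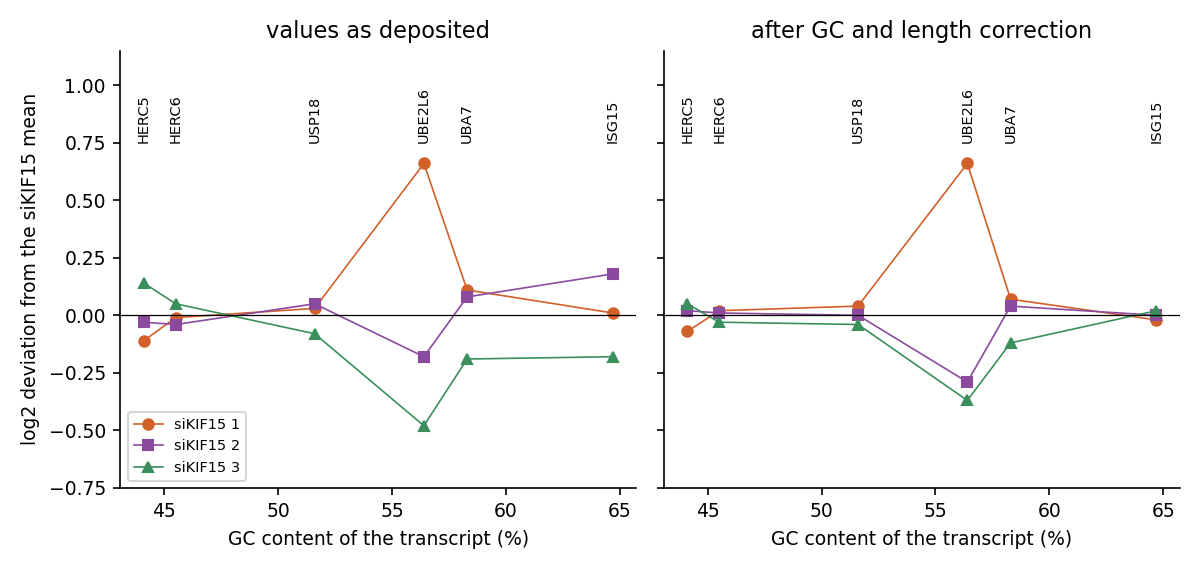
Deviation of each siKIF15 library from the siKIF15 mean (log2) against the GC content of the transcript, for the 6 genes, before (left) and after (right) a correction for GC content and length. Lines join the genes of a library. As deposited, siKIF15 3 is low for the GC-rich ISG15 (-0.18) and high for HERC5 (0.14), and after the correction ISG15 lies within 0.02 of 0 in each library while UBE2L6 stays spread.

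The genes whose profile over the 6 libraries came nearest to each member, by Euclidean distance on the log2 scale were sought among 11501 genes averaging 100 or more in either group. For ISG15 they were BST2 (tetherin, an inhibitor of virus release, distance 0.17), which went from a mean of 173.5 to 4025.6, and APOL1 (0.24). For UBA7 they were the actin-associated PDLIM7 (0.07) and the endocytic adaptor HIP1R (0.13). For HERC6 they were DHX58, the RNA sensor LGP2 (0.36), and SECTM1 (0.37). For USP18 they were TTC23 (0.13) and the transcription factor IRF1 (0.18), which went from 1123.8 to 2560.5. HERC5 had no close match, with the Ras regulator RASAL1 at 0.56 and NOV at 0.66, and UBE2L6 had none, with the protease gene PRSS23 at 1.58 and the guanylate-binding GBP1 at 1.6.

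Listed neighbours on the chromosome were read for each member. Beside HERC6 and HERC5, PPM1K (94.3 kb away) and HERC3 (17.7 kb) had changes of -0.07 (adjusted p = 0.68) and -0.16 (0.31). Beside ISG15, the transcription factor gene HES4 (13.4 kb) and AGRN, which encodes the matrix protein agrin (5.6 kb), rose by 0.86 (1.84-fold, adjusted p = 0.00017) and 0.35 (1.27-fold, adjusted p = 0.0028). The neighbours of UBA7, UBE2L6 and USP18 did not pass the test: FAM212A at -0.98 (adjusted p = 0.13) and TRAIP at 0.25 (0.083), SMTNL1 at 0.06 (0.94) and SERPING1 near the floor, and TUBA8 at -0.09 (0.76) and GGTLC3 at -1.28 (0.28). FAM212A, SMTNL1 and GGTLC3 were also low, with NC means of 24.8, 12.8 and 10.9. Their standard errors of 0.43, 0.44 and 0.76 leave room for changes that the test would miss. The smallest of the changes of ISG15, HERC5 and HERC6, 2.66, is larger than the estimate for any neighbour named here that is not itself a member. The UBA7 change of 0.66 is smaller than that of HES4 (0.86) and the estimate for SERPING1 (1.04, SE 0.87). Whether members and neighbours changed together was not tested.

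Genes related to the members were described from lists of their families, with changes under 1 in every called gene but IRF9. Across 8 lists of related genes, 97 were tested, of which 13 were higher and 13 lower, beside the 9.66% and 8.33% of all tested genes. Only UBE3B and IRF9 kept their call under all 16 alternatives, which include fits with 1 library left out. The smaller changes below were less secure, to unequal degrees. WWP1 kept its call in 15 alternatives, SUMO2 and UBL5 in 14, ARIH1 in 9 and USP21, UBE2E3, TYK2 and IFNAR1 in 8. With each library scaled to the same total, the calls lost included those of USP21, UBE2E3, UBE2B and TYK2. After the GC and length correction 5 of the called genes were lost, with ARIH1, UBE2W, HERC1 and IFNAR1 among these.

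**Figure D5:**
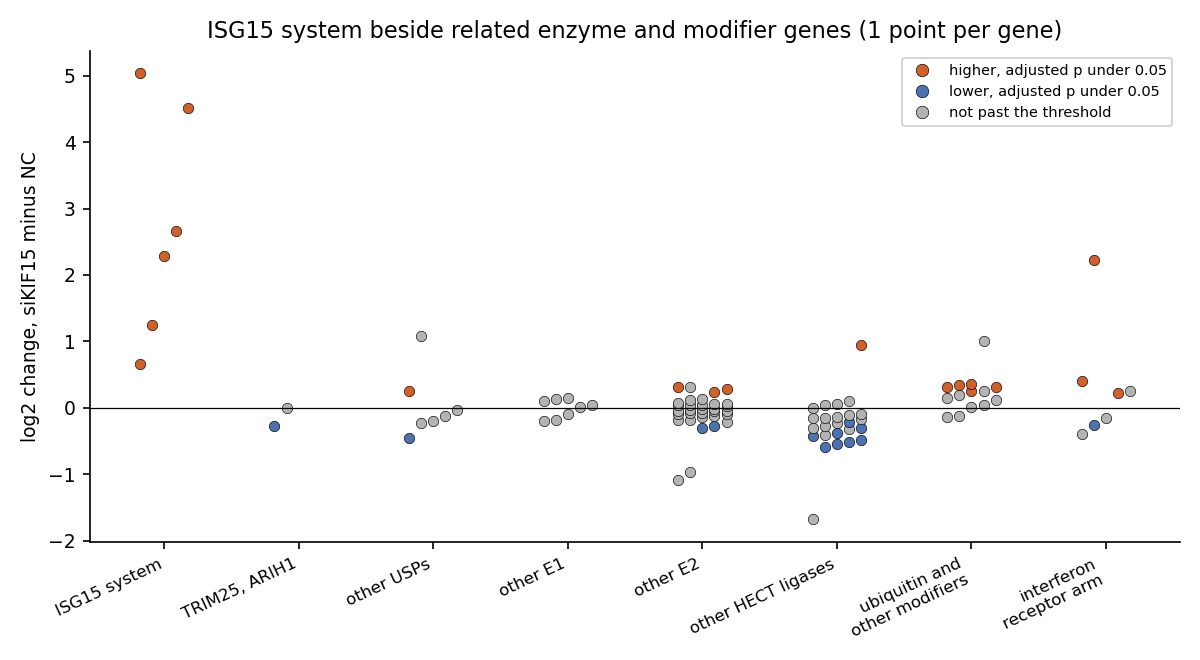
Log2 change of the 6 genes beside 7 of the 8 lists of related genes (the LFA-1 chains are left out), 1 point per tested gene. Orange and blue points passed the threshold as higher or lower, and grey points did not. The ISG15 system spans 0.66 to 5.04, and outside it only IRF9 (2.22) is called with a change of at least 1.

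The ligases TRIM25 and ARIH1 (HHARI), which have been described as further ISG15 ligases, were not called higher. TRIM25 had NC values of 8668, 8486.2 and 9028.1, against 9244.5, 7879.3 and 9054.9 under siKIF15, with a change of 0 (95% interval -0.16 to 0.15, adjusted p = 0.98). ARIH1 fell from 3196.4 ± 147 to 2631.9 ± 182.8 (SD, n = 3 each), a change of -0.28 (adjusted p = 0.019), but after the GC and length correction its change was 0.17 and not called. Among 7 other proteases that can act on ISG15, USP21 rose by 0.25 (adjusted p = 0.044) and USP2 fell by 0.46 on the log2 scale (adjusted p = 0.032), with a median of -0.13 over the list.

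Of the other E1 enzymes, none of the 8 tested passed the limma threshold, against 1 higher and 1 lower at an unadjusted p under 0.05, and the median was 0.04, or -0.03 with equal totals. After the GC and length correction 2 of them were called higher, UBA2 at 0.22 (adjusted p = 0.0028) and UBA6 at 0.19 (0.027), the latter from -0.18 without it. UBA1, which activates ubiquitin, was at 27335.4 ± 159.6 in NC and 29378.9 ± 1275.4 in siKIF15 (SD, n = 3 each), a change of 0.1 with an interval of -0.04 to 0.25. The E2 family had 32 tested genes, of which UBE2Z, UBE2B and UBE2E3 rose by 0.29, 0.31 and 0.24, while UBE2G2 and UBE2W fell by 0.27 and 0.31 on the log2 scale. UBE2L3, the closest relative of UBE2L6, was at 9721.4 ± 296.8 and 9443 ± 483.9 (SD, n = 3 each), a change of -0.04 (95% interval -0.19 to 0.1). The median over these E2 genes was -0.03, or 0.01 after the GC and length correction.

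Of 25 other ligases of the HECT class, the class of HERC5 and HERC6, 1 rose and 8 fell, with a median of -0.23 that became -0.12 after the GC and length correction. None of the HERC relatives was called higher by limma: HERC3 was at -0.16 (adjusted p = 0.31), HERC4 at -0.27 (0.052), HERC2 at -0.32 (0.05, just above the threshold before rounding) and HERC1, which passed, at -0.42 (0.03). The single rise was UBE3B, from 4222.8 ± 118.3 to 8163.6 ± 128.8 (SD, n = 3 each), a 1.93-fold difference (adjusted p = 4.1e-08). Its siKIF15 libraries, at 8121, 8308.3 and 8061.5, all lay far above the NC libraries at 4123.8, 4353.9 and 4190.9. Among those that fell, WWP1, HACE1 and SMURF2 did so by 0.51, 0.54 and 0.48 on the log2 scale.

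Of the 14 genes for ubiquitin and the other modifiers, 5 rose, among them UBL5, NEDD8 and SUMO2 by 0.36, 0.35 and 0.32. None was called lower by limma (0 at an unadjusted p under 0.05). The median was 0.22, or 0.12 after the GC and length correction and 0.16 with equal totals. The polyubiquitin gene UBB was at 65531.8 ± 366.8 and 71412.2 ± 6267.1 (SD, n = 3 each), a change of 0.12 (adjusted p = 0.34). UBD (FAT10), another ubiquitin-like modifier known to be induced by interferon, was near the floor in both groups, with means of 1.9 and 4.3 and no call (adjusted p = 0.39). Among the modifiers tested, ISG15 thus had the only called change of at least 1.

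The receptor arm that USP18 damps was uneven, with 3 of 7 tested genes higher and 1 lower. IRF9, the DNA-binding part of ISGF3, had NC values of 336.1, 256 and 347, against 1411.1, 1493.2 and 1437.1 under siKIF15, a 4.62-fold difference and a log2 change of 2.22 ± 0.12 (SE, adjusted p = 2.6e-09). The kinase TYK2 rose by 0.23 (adjusted p = 0.04). STAT2 had a change of 0.26 that missed the threshold (adjusted p = 0.051). The receptor chain IFNAR1 fell by 0.26 on the log2 scale (adjusted p = 0.044), the chain bound by USP18, IFNAR2, had a change of -0.15 (0.39), and the kinase JAK1 went from 324.4 to 249.7 (adjusted p = 0.11). The LFA-1 chains ITGAL and ITGB2 were both low, with changes of -0.98 (adjusted p = 0.28) and -0.19 (0.55).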

How the data were processed

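RNA-seq of 6 libraries was used, grouped by their titles. Per the labels' protocols, total RNA went into a standard Illumina preparation, with no word on poly(A) selection or strand. The submitters' processing notes name Bowtie 0.12.2 and 2 builds of the mouse genome (mm8, mm9) for libraries labelled human. Any human build or annotation is not given in the sources used here. Each deposited file lists gene symbols with 1 signal value apiece, which from the values looks like counts adjusted by the authors to a common size. Reads were not recovered, so depth is unknown and no counting interval was computed. Genes averaging 1 or more in either group were fitted with limma 3.58.1 (R 4.3.3, variance trend, no covariate) on log2(value + 1), tested on simulated data. The members and lists were chosen with earlier results of these data known. Named genes are the members, KIF15, 2 nearest profiles, 2 neighbours, up to 4 or 5 called genes per list and the closest relatives by function. HERC1 and HERC2, STAT2, IFNAR2, JAK1, the LFA-1 chains, UBA2, UBA6 and the markers CD68, PTPRC, KLK3, FAP and PDGFRA were named after their values were seen. Transcripts came from GENCODE v29, matched for 97.2% of symbols, and promoters from RefSeq. Alternatives varied pseudocount, filter, scaling, variance trend, replicate block, GC and length correction (loess, span 0.5) and libraries left out. The GC-corrected differences between members were added after seeing the data. Some called genes of the related lists are not reported here by name. Figures used matplotlib 3.10.9.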

Additional observations from a re-analysis of the deposited data

How the results depend on the processing

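The changes of the members and KIF15 and the counts of called genes were recomputed under 16 alternatives, and the pairs of members under 9. ISG15 (4.37 to 4.61), UBA7 (0.6 to 0.76), HERC5 (4.83 to 5.15), HERC6 (2.6 to 2.72) and USP18 (1.18 to 1.3) kept direction and call in all 16, and UBE2L6 kept its direction in all and its call in 13. Leaving out 1 library gave 1.64 to 2.88 for UBE2L6, and without a variance trend it was 2.28 with adjusted p = 0.13. KIF15 ran from -0.22 to 0.02, the only value above 0 being that after the GC and length correction (0.02, adjusted p = 0.92). Without a trend 760 genes were higher and 310 lower, and with the GC and length correction 2442 were higher. Leaving out 1 library gave 767 to 2537 higher and 417 to 2540 lower, with the highest counts without siKIF15 3 and the lowest without siKIF15 1; counts without NC 1 (1078 and 724), NC 2 (899 and 467) and NC 3 (1044 and 679) lay between. Of the 13 higher and 13 lower genes in the related lists, equal totals gave 8 higher and 18 lower, and no trend left 2 higher and 1 lower. Leaving out 1 library gave 5 to 20 higher and 2 to 32 lower there, the highest without siKIF15 3 (20 and 32). Counts were 8 and 4 without NC 1, 5 and 3 without NC 2, 7 and 4 without NC 3, 5 and 2 without siKIF15 1, and 9 and 7 without siKIF15 2. The cause was not tested. Against 13 of 15 pairs of members without overlap, the 9 alternatives gave 11 (pseudocount of 10) to 14 (without NC 1), with 12 after the GC and length correction, which was added after seeing the data. The deviations of libraries with the same number had correlations of 0.03, -0.14 and 0 over 11384 genes, against -0.24 to 0.26 for different numbers. Because each library also carries its own GC and length pattern, these cannot show whether the numbers pair the libraries. A fit with the replicate block called 1654 genes higher and 1530 lower, and UBE2L6 at 2.28 with adjusted p = 2.4e-06. The low signal of UBE2L6 and the unknown depth limit what can be said of that gene most.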
